A study of Mus musculus with 13 samples.

Results

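The livers compared here came from 4 ASAH- mice given Etoh-Dox and 4 ASAH+ mice given Etoh with no Dox, together 8 of the 13 mice whose whole-liver RNA was measured by RNaseq. Mice were assigned to groups from their descriptions and from the labels on induction. For ASAH+ mice the sample titles state Dox the other way round, so titles supplied nothing but the replicate number. Neither group expresses the ceramidase transgene, the ASAH- mice because they lack it and the ASAH+ Etoh mice because it was not induced, so the comparison asks how far these controls differ from each other in an alcohol-fed liver.

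The Dox-dependent activator rtTA was present in hepatocytes of both genotypes, since Albumin-Cre and Rosa26-loxP-stop-loxP-rtTA were homozygous in each of the 13 mice. TRE-ASAH1, the acid ceramidase gene under a promoter that needs rtTA and Dox, set ASAH+ mice apart from ASAH- mice, which lacked it. The mice were female, 8 to 14 weeks old, ASAH+ and ASAH- being littermates, and received 28% of their calories as ethanol for 4 weeks. Dox was given at 200 mg/l. The ASAH- Etoh-Dox and ASAH+ Etoh mice thus differed in both Dox and genotype, which cannot be told apart in these 8 mice. The other 5 mice were ASAH+ on Etoh-Dox and expressed the transgene. Their values stand beside the comparison, and their own differences from either group share its mice.

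The ASAH- Etoh-Dox livers had total counts of 22000529, 26254612, 24909341 and 27844993, and the ASAH+ Etoh livers had 21536448, 24454043, 22359614 and 17819486. The totals overlapped, and the means were compared by a two-sided exact permutation (p = 0.0857, n = 4 each). Levels below are CPM, that is counts divided by a TMM-scaled library size, given in the order of replicates 1 to 4, and errors beside means are SD. The smallest p that an exact permutation test of 4 against 4 can give is 0.0286. Alb, the gene of serum albumin, was at 94463, 90611, 110750 and 94040 CPM in ASAH- Etoh-Dox and at 74367, 92880, 89903 and 100229 CPM in ASAH+ Etoh. The 9 hepatocyte markers summed to 127146 to 148575 CPM and 107355 to 134242 CPM, so every library carried the liver's defining transcripts. In whole liver, more cells of a type and more RNA per cell cannot be told apart.

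Dox is a tetracycline, a class of drugs that bind the bacterial ribosome and, more weakly, the ribosome inside mitochondria, where the few proteins encoded by mitochondrial DNA are made. Interferons, signals of antiviral defence, act through transcription factors on promoters that hold an interferon-stimulated response element, and both hepatocytes and liver macrophages can express their target genes. Acid ceramidase splits ceramide, a sphingolipid, inside lysosomes.

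In these livers the transcripts of interferon-stimulated genes and of MHC antigen presentation lay higher in ASAH- Etoh-Dox than in ASAH+ Etoh in 49 of 50 and 23 of 23 members, with median log2 differences of 0.58 and 0.35 against 0.02 over all genes. The transcripts of 2 mitochondrial genes, mt-Co3 and mt-Co2, rose. This call was lost when the reads of their nuclear copies were added to them and when edgeR was fitted on the 8 mice alone. It was also lost with a trend on exon length removed and with the replicate number as a block. For at least 1 of the 2 genes it was lost when any liver but ASAH- Etoh-Dox replicate 4 was left out. Genes of bile acid synthesis and transport and of acute phase proteins were lower in 25 of 32 and 25 of 31 members. Markers of macrophages, lymphocytes and red cells lay higher in ASAH- Etoh-Dox.

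Asah1, the mouse gene of acid ceramidase (ENSMUSG00000031591, chr8:41340197-41374773 in GRCm38), was at 48.7, 40.0, 53.7 and 55.0 CPM in ASAH- Etoh-Dox and at 46.8, 44.2, 46.8 and 48.3 CPM in ASAH+ Etoh. The groups overlapped, and the spread was wider among the ASAH- livers. The means of 49.4 ± 6.78 and 46.5 ± 1.70 CPM (n = 4 each) gave a log2 difference of 0.09 ± 0.15 (SE) with an exact permutation p of 0.486. Its adjusted p was 0.906 by the quasi-likelihood test of edgeR with Benjamini-Hochberg adjustment. The 5 ASAH+ Etoh-Dox livers lay between 9668 and 15935 CPM, so neither control group held a liver near the induced level.

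By the quasi-likelihood test of edgeR with Benjamini-Hochberg adjustment, 2 of the 14317 genes tested (0.0140%) passed an adjusted p of 0.1, and none passed 0.05. At an unadjusted p under 0.05, 727 genes (5.08%) were higher in ASAH- Etoh-Dox and 589 (4.11%) were lower, where 716 genes in all are expected at that level. Without ASAH- Etoh-Dox replicate 3, 427 genes were higher and 455 lower at that level. In 443 genes (3.09%) all 4 ASAH- Etoh-Dox livers lay above all 4 ASAH+ Etoh livers, and in 344 (2.40%) they lay below. From these, 8 higher and 8 lower protein-coding genes were named by smallest p. The higher ones were mt-Co3, mt-Co2, mt-Nd3, H2-Q10, Rdh5, Rsad2, Isg15 and Ifit3. The lower ones were Kmt2c, Id2, Mfsd6, Apc, Itih4, Tent4b, Vps13c and Cyp3a25. No overlap was a condition of that choice and is no separate result for these genes. DESeq2 on the 8 mice alone passed 88 genes higher (0.834% of the 10553 it gave an adjusted p) and 80 lower (0.758%) at an adjusted p under 0.1, so the number called differs between the tools. In direction alone, 7619 of the 14317 genes were higher in ASAH- Etoh-Dox and 6698 were lower. Each gene list below is described by its counts and median beside these shares and directions.

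mt-Co3 encodes a subunit of cytochrome c oxidase, the last complex of the respiratory chain (ENSMUSG00000064358, chrM:8607-9390 in GRCm38). It was at 8914, 8761, 9175 and 7448 CPM in ASAH- Etoh-Dox and at 4604, 4990, 5929 and 5052 CPM in ASAH+ Etoh. Every ASAH- liver lay above every ASAH+ Etoh liver, and the 5 ASAH+ Etoh-Dox livers, at 7758, 6628, 7201, 6324 and 6387 CPM, also lay above all 4 uninduced ones. It rose by a log2 difference of 0.74 ± 0.10 (SE), from 5144 ± 560 to 8575 ± 770 CPM, with an adjusted p of 0.0633 by the quasi-likelihood test of edgeR with Benjamini-Hochberg adjustment. It was called in 3 of the 13 fits that left out 1 liver, where its adjusted p ran from 0.0214 to 0.34, and it did not pass when edgeR was fitted on the 8 mice alone.

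mt-Co2, another subunit of the same complex (ENSMUSG00000064354, chrM:7013-7696), was at 2753, 1814, 2572 and 1279 CPM in ASAH- Etoh-Dox against 759, 772, 892 and 558 CPM in ASAH+ Etoh. The groups did not overlap, although ASAH- replicate 4 lay below the other ASAH- livers. The log2 difference was 1.50 ± 0.22 (SE) with an adjusted p of 0.08 by the quasi-likelihood test of edgeR with Benjamini-Hochberg adjustment. It was called in 1 of those 13 fits, where its adjusted p ran from 0.0061 to 0.34. It too did not pass on the 8 mice alone, with the length trend removed or with the replicate block. The ASAH+ Etoh-Dox livers lay at 1653, 1189, 1195, 1307 and 1586 CPM, a log2 difference of 0.89 from the ASAH+ Etoh mice they share with the comparison.

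Chromosome 1 holds a run of 7 unprocessed pseudogenes on its minus strand, chr1:24611535-24616197, that share 97.2% to 100% of their 31-base words with the mitochondrial genes they copy. Gm28437, the copy of mt-Co3, was at 804, 1543, 548 and 2446 CPM in ASAH- Etoh-Dox and at 3381, 2493, 2876 and 4250 CPM in ASAH+ Etoh. The copy was thus lower where the mitochondrial gene was higher, with no overlap and a log2 difference of -1.28. Gm28661, the copy of mt-Co2, was at 6787, 8085, 6541 and 7349 CPM against 6730, 5905, 7177 and 8012 CPM and overlapped. Gm28438, the copy of mt-Nd3 in the run, differed by 0.39. Gm10925, the copy of mt-Atp6, was at 298, 195, 248 and 289 CPM against 1741, 1673, 1102 and 277 CPM, so ASAH+ Etoh replicate 4 stood with the ASAH- livers.

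With the counts of each gene and its copy added together, mt-Co3 was at 9719, 10302, 9724 and 9897 CPM in ASAH- Etoh-Dox and at 7985, 7481, 8806 and 9300 CPM in ASAH+ Etoh. The groups still did not overlap, and the log2 difference shrank to 0.24 ± 0.083 (SE) with an adjusted p of 0.431 by the quasi-likelihood test of edgeR with Benjamini-Hochberg adjustment. Summed mt-Co2 was at 9541, 9897, 9115 and 8630 CPM against 7490, 6676, 8069 and 8569 CPM, again without overlap, a log2 difference of 0.27 ± 0.087 (SE). No gene then passed the adjusted test of edgeR, while 727 were higher and 582 lower at an unadjusted p under 0.05. How reads were shared between mitochondrial genes and their copies therefore moves with the result, and its part in the result was not tested.

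**Figure D1:**
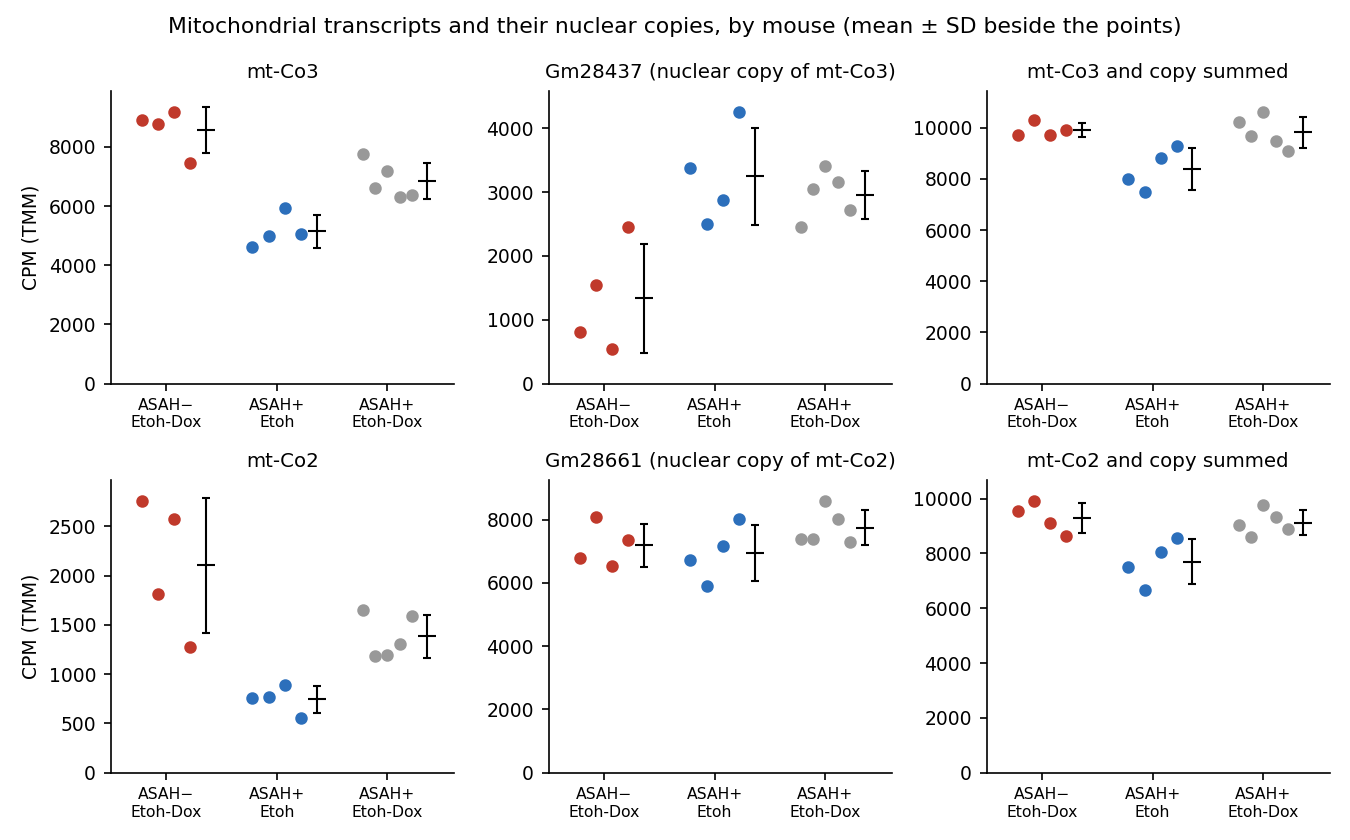
Levels in CPM of mt-Co3 and mt-Co2, of their copies on chromosome 1 and of each sum, 1 point per mouse with the mean and SD beside each group. Both mitochondrial genes lie higher in ASAH- Etoh-Dox than in ASAH+ Etoh without overlap, by log2 differences of 0.74 and 1.50, and the sums differ by 0.24 and 0.27.

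Of the 13 mitochondrially encoded protein genes, 11 were higher in ASAH- Etoh-Dox and 2 lower, with a median log2 difference of 0.16 (0.09 with the length trend described further on removed), and 5 had an unadjusted p under 0.05, all higher. Those 5 were mt-Co3, mt-Co2, mt-Nd3, mt-Nd2 and mt-Atp6, of which mt-Nd2 is named after its value was seen. mt-Nd3, a subunit of complex I, was at 149, 143, 149 and 109 CPM against 98.3, 72.0, 80.5 and 73.6 CPM, with no overlap and a log2 difference of 0.76. mt-Nd2, also of complex I, differed by 0.29, and mt-Atp6, of the ATP synthase, by 0.32 on the log2 scale. With the copies added, mt-Nd3 differed by 0.43 and mt-Atp6 by 0.16. In mt-Atp6 the groups overlapped with and without the copies. Its unadjusted p was above 0.05 with them, which left 4 of the 5 below it. mt-Cytb, mt-Nd1 and mt-Co1 differed by 0.20, 0.10 and -0.06, all with overlap between the groups. The genes of mitochondrial DNA together took 7.56% ± 0.274 of counts in ASAH- Etoh-Dox and 6.55% ± 0.639 in ASAH+ Etoh (n = 4 each; exact permutation p = 0.0286). With the copies added the shares were 9.09% ± 0.356 and 8.34% ± 0.763 (n = 4 each; exact permutation p = 0.143).

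Nuclear genes of oxidative phosphorylation lay higher in 59 of 76 members with a median log2 difference of 0.06, and 6 had an unadjusted p under 0.05, all higher. Uqcr11, a small subunit of complex III, averaged 77.8 ± 15.3 CPM against 52.8 ± 9.24 CPM, and Ndufa7, of complex I, differed by 0.39 on the log2 scale. Genes of the mitochondrial ribosome and translation lay higher in 67 of 93 members, 9 of them at an unadjusted p under 0.05, also with a median of 0.06. Mrpl53, a protein of the large mitochondrial ribosomal subunit, averaged 12.5 ± 1.06 CPM against 9.33 ± 0.622 CPM and had an adjusted p of 0.0757 by DESeq2 on the 8 mice and of 0.389 by the quasi-likelihood test of edgeR with Benjamini-Hochberg adjustment. Mrpl57 and Mrpl12, of the same subunit, differed by 0.54 and 0.25. With that length trend removed, the medians of the 2 lists were -0.01 and 0.01.

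Mitochondrial chaperones and proteases lay higher in 9 of 20 members, with a median of -0.02 and none at an unadjusted p under 0.05; Hspd1, the main chaperonin of the matrix, differed by -0.20. Targets of the integrated stress response and ATF4, which mitochondrial stress can engage, lay higher in 17 of 25 members with a median of 0.08, which ran from 0.01 to 0.17 with 1 liver left out. Of these, 1 had an unadjusted p under 0.05, Shmt2, a mitochondrial enzyme of one-carbon metabolism, with a log2 difference of 0.31.

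The interferon-stimulated genes were the list with the most members apart. Of 50 tested, 49 were higher in ASAH- Etoh-Dox and 1 lower, 32 had an unadjusted p under 0.05 and 21 did not overlap between the groups, all 32 and all 21 higher. DESeq2 on the 8 mice passed 23 of them, all higher, while edgeR passed none, the lowest adjusted p in the list being 0.389 by the quasi-likelihood test of edgeR with Benjamini-Hochberg adjustment. The single lower member was Irf1, a transcription factor that type II interferon also induces, at -0.15 on the log2 scale.

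Isg15, a small protein that is joined to others like ubiquitin, was at 18.4, 12.2, 10.2 and 12.9 CPM in ASAH- Etoh-Dox and at 4.93, 7.24, 5.61 and 8.67 CPM in ASAH+ Etoh. All ASAH- livers lay above all ASAH+ Etoh livers, with a log2 difference of 1.02 ± 0.23 (SE). Its adjusted p was 0.389 by the quasi-likelihood test of edgeR with Benjamini-Hochberg adjustment and 0.0078 by DESeq2 on the 8 mice. Rsad2, the antiviral enzyme viperin, was at 35.8, 21.7, 19.5 and 17.6 CPM against 9.12, 9.85, 8.95 and 13.4 CPM, with ASAH- replicate 1 the highest. Its log2 difference was 1.20 ± 0.26 (SE).

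Ifit3 and Ifit1 encode proteins that bind viral RNA or its binding partners. Ifit3 was at 37.0, 36.1, 26.0 and 40.0 CPM in ASAH- Etoh-Dox and at 16.7, 20.3, 13.9 and 14.1 CPM in ASAH+ Etoh, a log2 difference of 1.10 ± 0.24 (SE). Ifit1 was at 34.6, 26.7, 14.4 and 33.2 CPM against 10.9, 13.8, 10.7 and 12.2 CPM, a log2 difference of 1.19 ± 0.30 (SE). Neither gene overlapped between the groups, and in both ASAH- replicate 3 came closest to the uninduced ASAH+ livers.

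Oasl1, a protein related to the RNA sensors of the oligoadenylate synthetase family, was at 18.3, 14.3, 10.7 and 12.6 CPM against 6.87, 7.94, 6.40 and 6.59 CPM. The groups did not overlap, and the log2 difference was 1.00 ± 0.25 (SE). Irf7, a transcription factor that amplifies type I interferon production, was at 50.8, 38.5, 52.4 and 54.5 CPM against 28.9, 24.5, 23.1 and 32.0 CPM, also without overlap, with a log2 difference of 0.85 ± 0.26 (SE).

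The ASAH+ Etoh-Dox livers spanned both control groups in these genes. Their Irf7 levels were 76.0, 46.8, 33.6, 36.8 and 29.1 CPM, and their Ifit3 levels were 39.7, 33.1, 26.2, 21.1 and 16.3 CPM. Over the 50 genes, the median log2 level of each liver, each gene taken relative to its mean over the 8 control livers, was 0.35, 0.27, 0.06 and 0.38 in ASAH- Etoh-Dox, -0.28, -0.30, -0.47 and -0.11 in ASAH+ Etoh, and 0.46, 0.35, 0.14, -0.15 and -0.40 in ASAH+ Etoh-Dox. The control groups did not overlap in this score, and the induced livers covered nearly the range of both. The median of the list was 0.43 for ASAH+ Etoh-Dox against ASAH+ Etoh and -0.14 against ASAH- Etoh-Dox, comparisons that share their mice with the one described here.

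**Figure D2:**
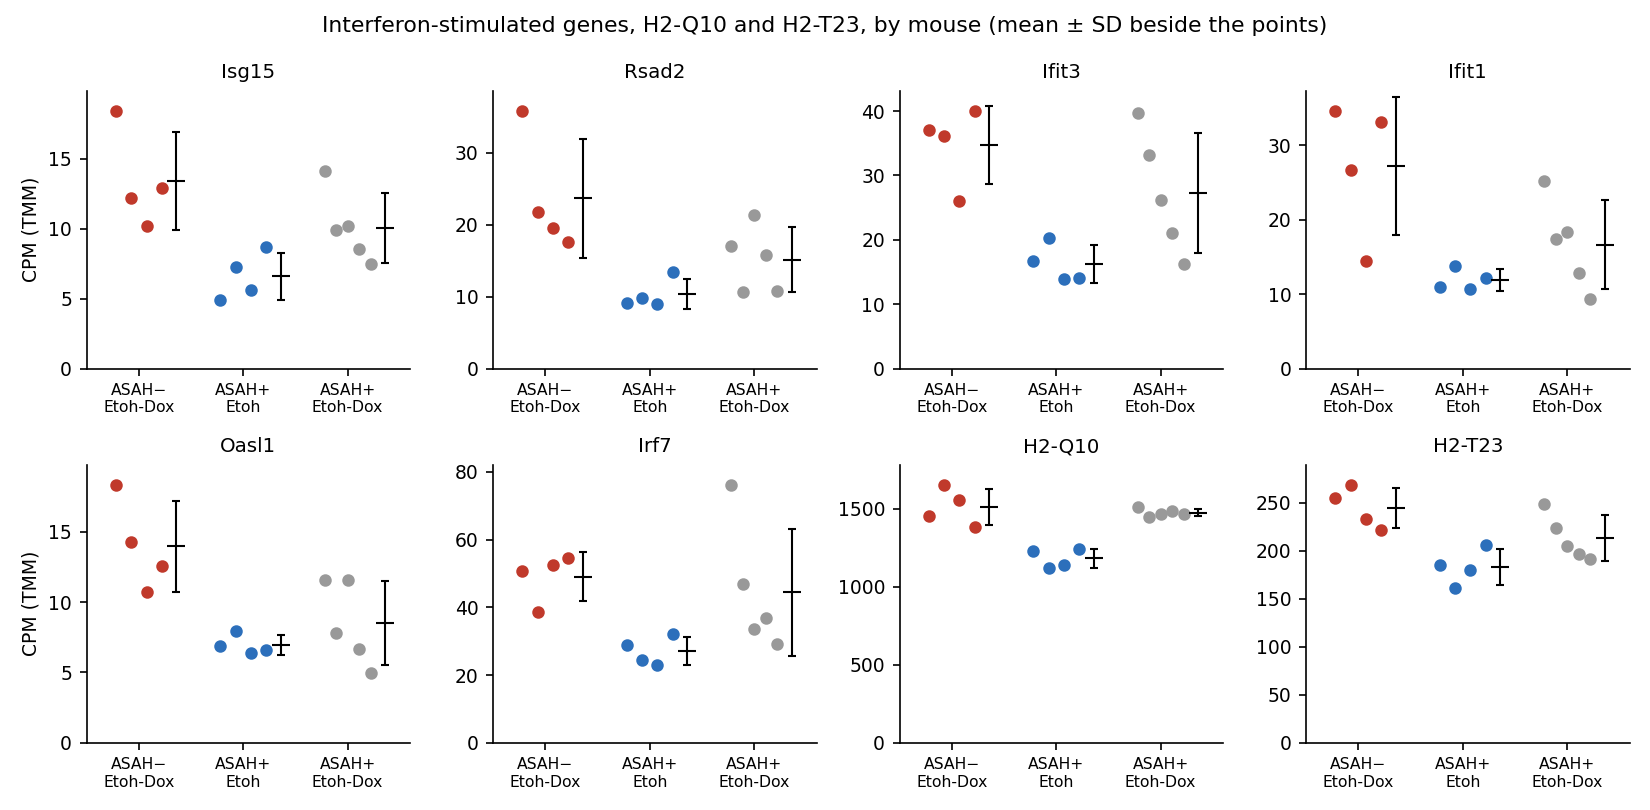
Levels in CPM of 8 genes of interferon response and antigen presentation, 1 point per mouse with the mean and SD beside each group. Isg15, Rsad2, Ifit3, Ifit1, Oasl1 and Irf7 lie higher in every ASAH- Etoh-Dox liver than in every ASAH+ Etoh liver, while the ASAH+ Etoh-Dox livers spread over both ranges in these 6 genes.

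The promoters of the 5 interferon-stimulated genes with the smallest unadjusted p among the members found in RefSeq's GRCm38.p6 promoter table are printed because their genes lay apart together. Each shows the 250 bases before the start of the gene, 5′ to 3′ on the gene's strand, and capitals mark GAAANNGAAA on either strand, the core of the interferon-stimulated response element, with overlapping matches run together. Rsad2 lies at chr12:26456453-26456702 (minus strand), Isg15 at chr4:156200819-156201068 (minus strand), Ifit3 at chr19:34583279-34583528 (plus strand), Oasl1 at chr5:114922990-114923239 (plus strand) and Ifit1 at chr19:34640639-34640888 (plus strand).
Rsad2: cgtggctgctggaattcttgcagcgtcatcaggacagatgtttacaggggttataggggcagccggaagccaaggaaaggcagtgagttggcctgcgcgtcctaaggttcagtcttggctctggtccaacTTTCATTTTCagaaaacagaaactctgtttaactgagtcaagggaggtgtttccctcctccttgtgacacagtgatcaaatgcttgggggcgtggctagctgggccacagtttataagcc
Isg15: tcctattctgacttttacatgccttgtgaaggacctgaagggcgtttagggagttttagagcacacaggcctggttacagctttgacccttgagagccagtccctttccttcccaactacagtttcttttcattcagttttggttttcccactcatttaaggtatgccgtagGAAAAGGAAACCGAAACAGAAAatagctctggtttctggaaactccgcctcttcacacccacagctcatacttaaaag
Ifit3: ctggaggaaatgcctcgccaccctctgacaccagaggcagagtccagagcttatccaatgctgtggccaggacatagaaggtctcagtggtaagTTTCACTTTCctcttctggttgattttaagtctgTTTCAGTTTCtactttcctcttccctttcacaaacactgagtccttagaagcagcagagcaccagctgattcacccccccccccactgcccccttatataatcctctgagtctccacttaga
Oasl1: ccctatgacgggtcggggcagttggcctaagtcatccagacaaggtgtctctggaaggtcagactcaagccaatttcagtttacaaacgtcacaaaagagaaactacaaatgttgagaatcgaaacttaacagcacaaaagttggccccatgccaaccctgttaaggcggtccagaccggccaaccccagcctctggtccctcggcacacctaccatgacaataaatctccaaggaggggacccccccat
Ifit1: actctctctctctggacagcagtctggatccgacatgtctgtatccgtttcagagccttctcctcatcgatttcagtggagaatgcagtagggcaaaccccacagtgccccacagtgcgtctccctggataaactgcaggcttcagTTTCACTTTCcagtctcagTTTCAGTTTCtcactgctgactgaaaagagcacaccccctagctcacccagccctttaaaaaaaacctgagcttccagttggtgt

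Isg15 had 3 overlapping matches on its own strand, the first base of each 78, 72 and 66 bases before the start. Ifit3 and Ifit1 had 2 matches each and Rsad2 had 1, all on the opposite strand, and Oasl1 had none in this window. Of the 50 interferon-stimulated genes tested, 36 were found in the table by symbol, and 22 of them (61.1%) held the motif in the 300 bases from 250 before to 50 after a start. Of all 27025 genes listed there, 1079 (3.99%) held it, as did 1131 of 32851 promoters (3.44%). The median log2 difference was 0.53 for the 22 members with the motif and 0.67 for the 14 without it, so the members with a match were not the further apart. A match is a description of the letters and not a bound site.

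MHC genes, which load and display peptides to T cells, were higher in ASAH- Etoh-Dox in 23 of 23 members, with 7 at an unadjusted p under 0.05 and 8 without overlap. The list shares 3 genes, Psmb8, Psmb9 and Tap1, with the interferon-stimulated genes. H2-Q10, a secreted class I protein made by hepatocytes, was at 1453, 1650, 1557 and 1382 CPM against 1228, 1121, 1139 and 1239 CPM, without overlap and with a log2 difference of 0.35 ± 0.075 (SE). H2-T23, a nonclassical class I gene, was at 255, 268, 233 and 222 CPM against 185, 161, 180 and 206 CPM, also without overlap, at 0.42 on the log2 scale. H2-K1, a classical class I gene, differed by 0.14.

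Class II genes, which professional antigen-presenting cells express, lay higher as well. H2-Ab1 was at 16.3, 18.7, 21.2 and 15.4 CPM in ASAH- Etoh-Dox and between 9.88 and 13.1 CPM in ASAH+ Etoh. H2-Aa was at 25.4, 24.3, 25.3 and 25.0 CPM against 15.7, 16.9, 15.6 and 19.8 CPM. Cd74, the invariant chain that guides class II proteins, was at 65.6, 69.1, 73.5 and 60.3 CPM against 40.9, 44.4, 43.1 and 55.0 CPM. None of the 3 overlapped, ASAH+ Etoh replicate 4 came closest to the ASAH- livers in each, and the log2 differences were 0.72, 0.56 and 0.55. H2-Aa and Cd74 had adjusted p values of 0.000728 and 0.00576 by DESeq2 on the 8 mice, against 0.675 and 0.618 by the quasi-likelihood test of edgeR with Benjamini-Hochberg adjustment. Neither had an unadjusted p under 0.05 in edgeR, and both were chosen for naming after their values were seen.

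Markers of immune and blood cells also lay higher in ASAH- Etoh-Dox. Of 15 Kupffer cell and macrophage markers, 14 were higher in ASAH- Etoh-Dox with a median log2 difference of 0.57, and 9 had an unadjusted p under 0.05. They summed to 609, 623, 1224 and 762 CPM in ASAH- Etoh-Dox and to 584, 459, 525 and 550 CPM in ASAH+ Etoh, with Cd5l the most abundant. Clec4f, a lectin found on Kupffer cells, was at 121, 111, 183 and 146 CPM against 109, 89.9, 99.0 and 98.4 CPM. C1qa, a chain of complement C1q, was at 44.3, 50.0, 84.2 and 50.2 CPM against 36.6, 26.6, 35.4 and 37.9 CPM. Adgre1, the macrophage antigen F4/80, was at 22.7, 18.6, 52.0 and 31.5 CPM against 19.7, 16.4, 17.5 and 18.0 CPM.

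ASAH- replicate 3 was the highest liver in each of these 3 markers, and without it the median of the macrophage list was 0.33. That same liver had the lowest interferon score of its group. C1qc, another C1q chain, differed by 0.71 on the log2 scale. The part of these cells in the higher interferon and MHC transcripts was not tested.

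Lymphocyte markers were higher in 14 of 15 members with a median of 0.56, and summed to 22.9, 20.4, 22.5 and 19.5 CPM against 11.2, 20.6, 16.1 and 14.4 CPM, with Igkc the most abundant. The sums overlapped through ASAH+ Etoh replicate 2. Ighm, Cd79b and Cd79a, of the B cell receptor, differed by 0.97, 0.86 and 0.58, and Cd3e, of the T cell receptor, by 0.98. All of these named genes overlapped between the groups, and Cd79a ran from 0.30 to 1.56 with 1 liver left out. Cd79b, Cd79a and Cd3e averaged 1.12, 0.594 and 0.641 CPM in ASAH- Etoh-Dox and 0.619, 0.387 and 0.32 CPM in ASAH+ Etoh. Of the 15 members, 4 had an unadjusted p under 0.05 and 1 did not overlap, all higher.

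Erythroid markers were higher in 7 of 7 members, with a median log2 difference of 2.30, and all 7 had an unadjusted p under 0.05. They summed to 231, 755, 1725 and 215 CPM in ASAH- Etoh-Dox and to 135, 160, 175 and 193 CPM in ASAH+ Etoh, with Hbb-bs, a beta globin gene, the most abundant. Hba-a1, an alpha globin gene, was at 29.6, 102, 248 and 32.8 CPM against 19.2, 20.7, 24.6 and 27.8 CPM. ASAH- replicates 2 and 3 held most of the difference, while replicates 1 and 4 lay just above the ASAH+ Etoh livers. Hba-a2 and Hbb-bs differed by 2.30 and 2.03. Leaving out 1 liver at a time gave list medians from 1.41 to 2.61.

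Stellate cell and fibroblast markers were higher in 14 of 15 members with a median of 0.30. They summed to 374, 374, 488 and 376 CPM against 356, 290, 301 and 396 CPM, with Dcn the most abundant at a log2 difference of 0.14. Reln, an extracellular protein made by stellate cells, was at 52.5, 51.8, 55.1 and 53.2 CPM against 42.5, 41.7, 41.3 and 50.4 CPM and did not overlap. Reln and 3 others, Colec11 at 0.30, Col3a1 at 0.60 and Pdgfrb at 0.34, made up the 4 with an unadjusted p under 0.05, Col3a1 and Pdgfrb being named after their values were seen. Sinusoidal endothelial markers were higher in 7 of 15 with a median of -0.10, and summed to 421, 355, 602 and 456 CPM against 535, 384, 486 and 510 CPM, with Ptprb the most abundant. The 2 with an unadjusted p under 0.05 were Ptprb, a phosphatase of endothelial cells, at -0.38 and Bmp2, a signal to hepatocytes that governs iron balance, at -0.36.

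Neutrophil markers were higher in 2 of 3 tested members with a median of 0.26, and summed to 2.19, 4.24, 5.79 and 3.39 CPM against 2.95, 3.21, 3.85 and 3.06 CPM, with Csf3r the most abundant. Cholangiocyte markers were higher in 6 of 6 with a median of 0.30, and summed to 80.3, 46.3, 37.9 and 36.6 CPM against 45.4, 38.7, 42.7 and 52.5 CPM, with Spp1 the most abundant. ASAH- replicate 1 was the highest liver, and without it the median was -0.05. Markers of neighbouring adipose tissue and pancreas were higher in 2 of 2 tested members with a median of 0.21, and summed to 1425, 1242, 958 and 578 CPM against 958, 675, 1088 and 970 CPM. Nearly all of that sum was Car3, which liver also expresses, and 3 of those markers were at 0 in all 8 livers. With 1 liver left out the neutrophil median ran from 0.06 to 0.47 and that of adipose and pancreas from 0.01 to 0.39. None of these 3 lists held a member at an unadjusted p under 0.05. The hepatocyte markers themselves were higher in 7 of 9 with a median of 0.06, the 1 at an unadjusted p under 0.05 being Apoa1, described with the lipoproteins.

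**Figure D3:**
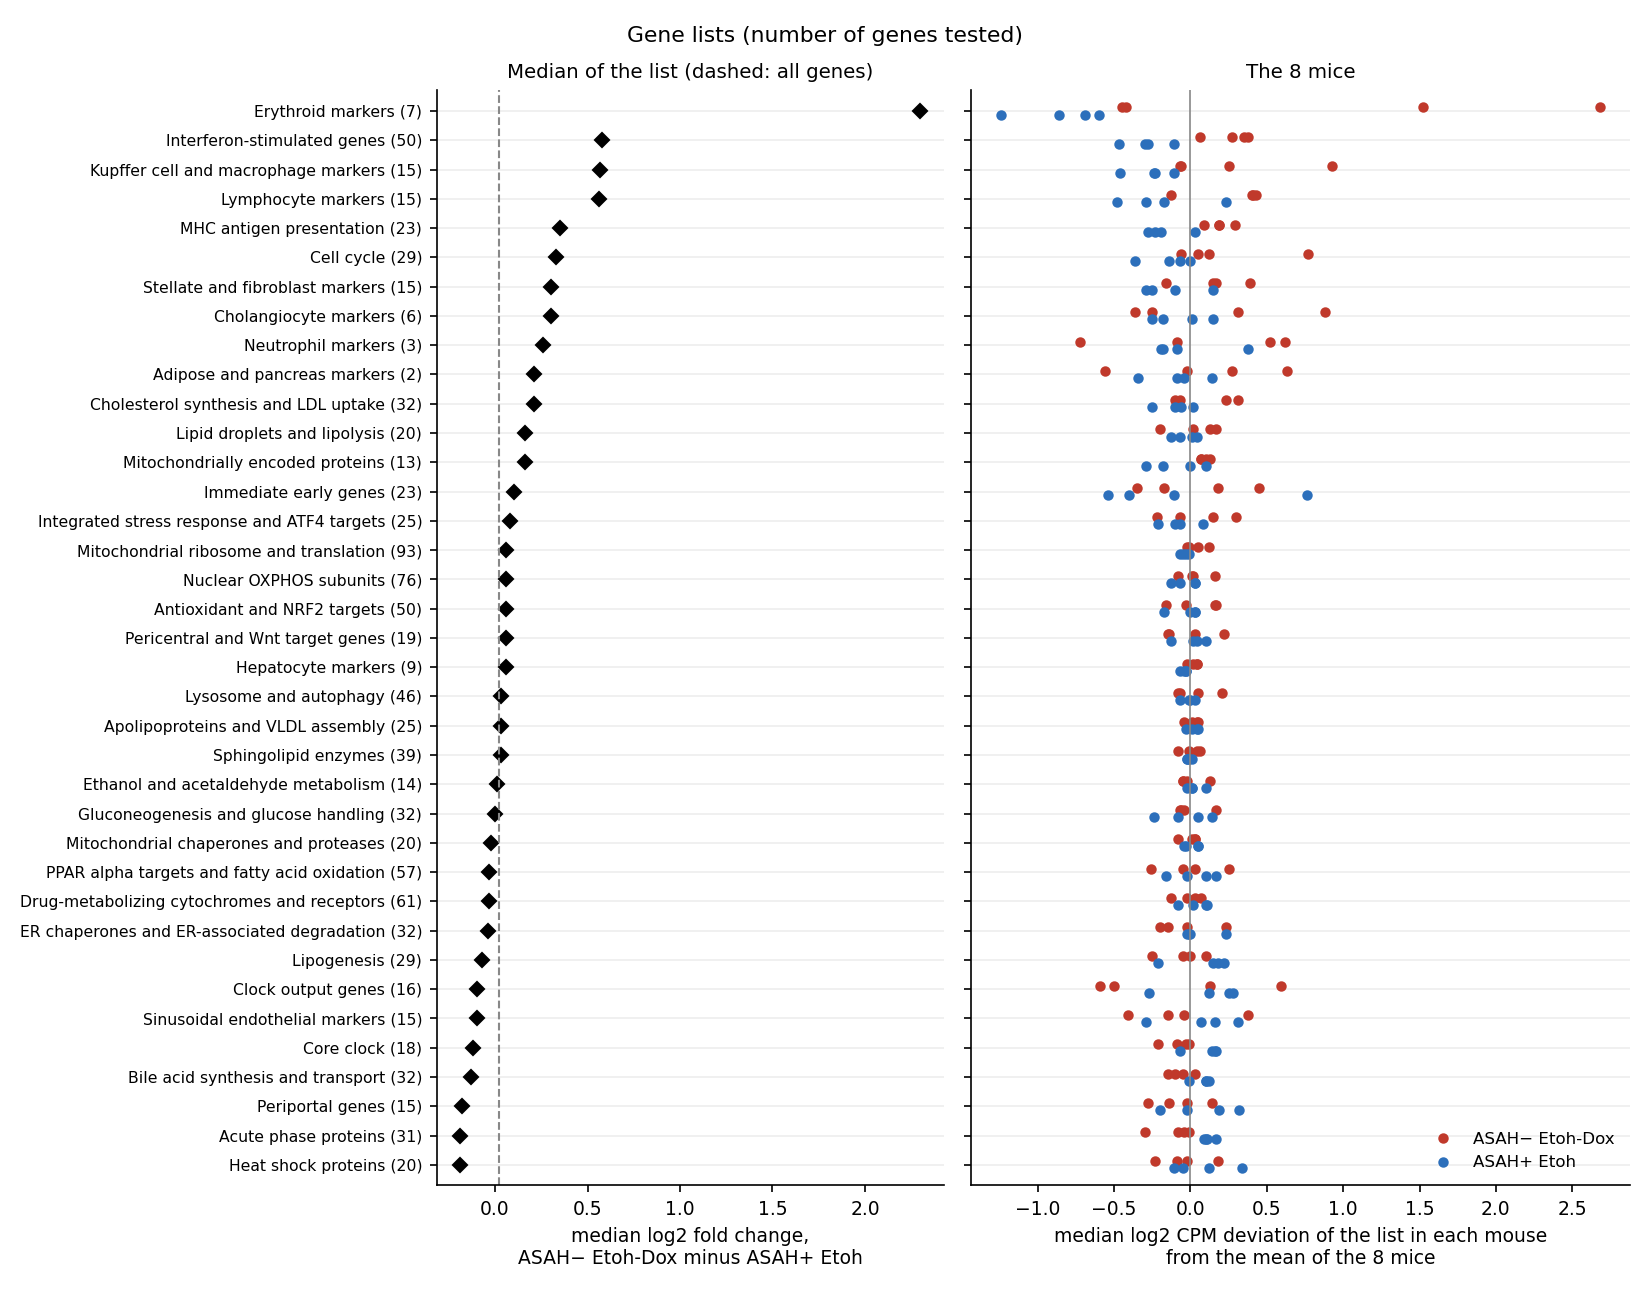
Median log2 difference of each of the 37 gene lists between ASAH- Etoh-Dox and ASAH+ Etoh, beside the median log2 level of each list in each of the 8 mice. The interferon list lies at 0.58, the MHC list at 0.35 and the erythroid list at 2.30, against 0.02 for all genes tested.

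Among lower genes, Kmt2c, a histone H3 lysine methyltransferase that acts at enhancers, was at 30.8, 25.5, 24.9 and 27.2 CPM in ASAH- Etoh-Dox and at 39.4, 39.2, 35.6 and 39.1 CPM in ASAH+ Etoh. The groups did not overlap, and the log2 difference was -0.50 ± 0.084 (SE) with an adjusted p of 0.162 by the quasi-likelihood test of edgeR with Benjamini-Hochberg adjustment. Id2, an inhibitor of helix-loop-helix transcription factors, was at 51.7, 59.8, 62.5 and 64.7 CPM against 164, 94.2, 105 and 123 CPM. Every ASAH- liver lay below every ASAH+ Etoh liver, and the log2 difference was -1.03 ± 0.18 (SE). The adjusted p of Id2 was 0.204 by the quasi-likelihood test of edgeR with Benjamini-Hochberg adjustment and 1.46e-05 by DESeq2 on the 8 mice. The ASAH+ Etoh-Dox livers averaged 30.5 ± 1.89 CPM (n = 5) for Kmt2c and 69.0 ± 13.9 CPM for Id2.

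Apc, a scaffold of the complex that degrades beta-catenin, averaged 40.5 ± 2.77 CPM in ASAH- Etoh-Dox and 52.7 ± 3.45 CPM in ASAH+ Etoh, a log2 difference of -0.38. Tent4b, a polymerase that adds tails to RNA, averaged 40.3 ± 2.45 and 52.1 ± 3.20 CPM. Vps13c, a lipid transfer protein at organelle contacts, averaged 41.0 ± 2.24 and 53.6 ± 4.44 CPM. Mfsd6, a membrane protein, averaged 8.87 ± 1.19 and 13.6 ± 2.05 CPM, a log2 difference of -0.62. Dmxl2, a partner of the vacuolar proton pump, was at 20.0, 17.3, 16.8 and 21.5 CPM against 27.9, 26.5, 27.6 and 27.7 CPM and did not overlap. These 5 genes each had an adjusted p of 0.389 by the quasi-likelihood test of edgeR with Benjamini-Hochberg adjustment.

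Rdh5, a retinol dehydrogenase, went the other way, at 14.9, 15.8, 13.9 and 14.6 CPM in ASAH- Etoh-Dox and 8.85, 9.12, 11.4 and 11.2 CPM in ASAH+ Etoh. Its groups did not overlap, and the log2 difference was 0.54 ± 0.12 (SE). The ASAH+ Etoh-Dox livers averaged 10.4 ± 1.31 CPM (n = 5), a log2 difference of 0.03 from ASAH+ Etoh.

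**Figure D4:**
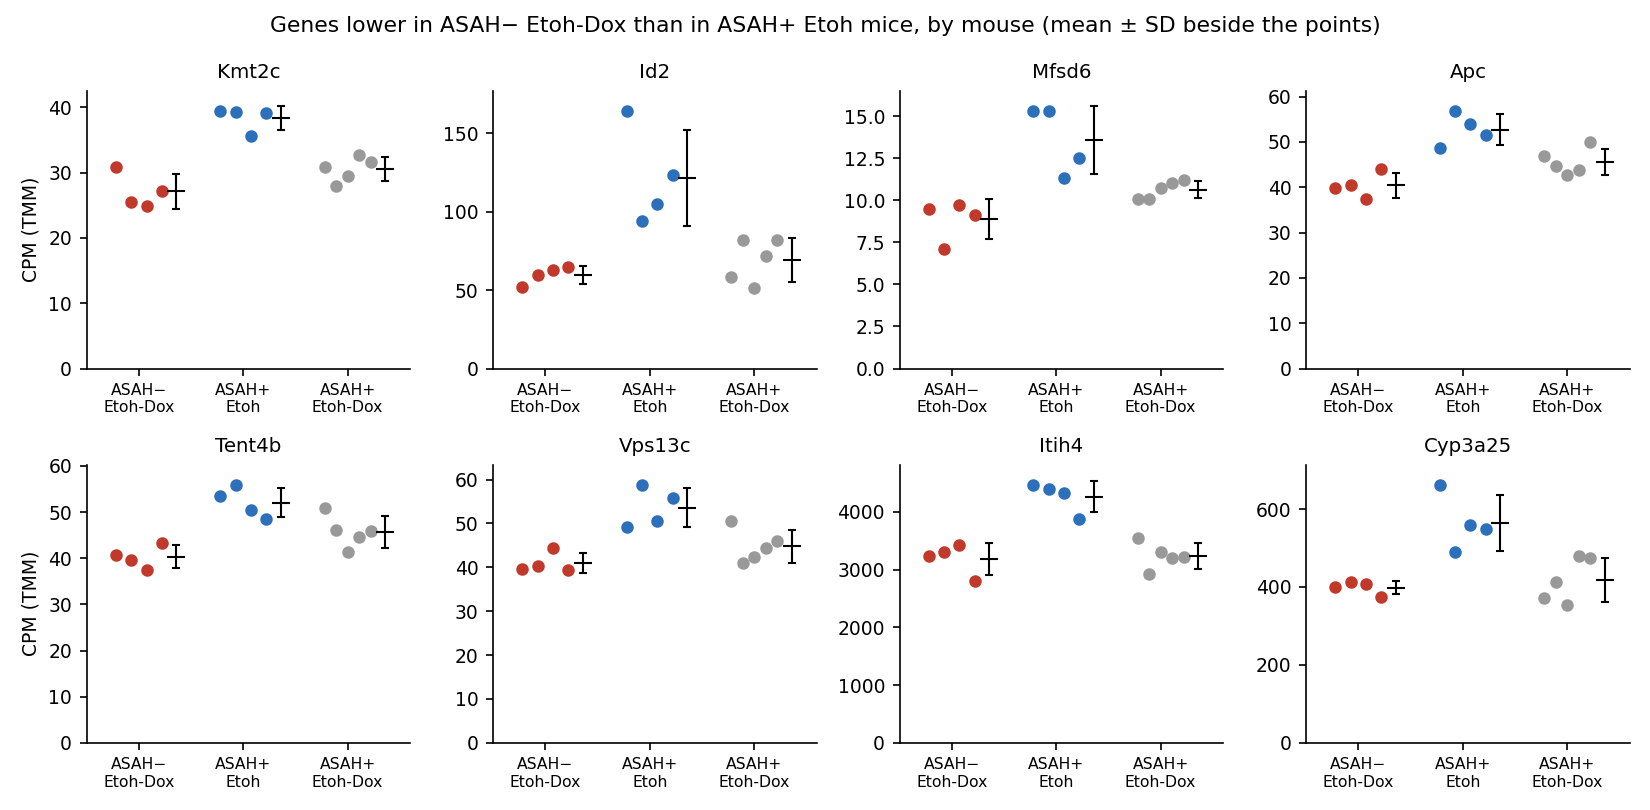
Levels in CPM of 8 genes that were lower in ASAH- Etoh-Dox than in ASAH+ Etoh, 1 point per mouse with the mean and SD beside each group. None of the 8 genes overlaps between the 4 livers of each control group, which was a condition of choosing them.

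Genes of long exon length were over-represented among the lower genes. Exon length here counts each annotated exon base of a gene once, over all its transcripts. With the tested genes divided by exon length into 5 equal bins, whose medians were 1424, 2804, 4157, 5925 and 9606 bases, the median log2 difference ran from 0.08 in the shortest through 0.05, 0.03 and -0.01 to -0.07 in the longest. At an unadjusted p under 0.05, 252 genes of the shortest bin were higher and 58 lower, against 53 higher and 291 lower in the longest. The median log2 level of the longest bin minus that of the shortest, each gene taken relative to its mean over all 13 livers, was -0.05, -0.21, -0.12 and 0.05 in ASAH- Etoh-Dox and 0.06, 0.16, 0.04 and 0.04 in ASAH+ Etoh. ASAH- replicate 4 fell within the ASAH+ Etoh range, and the means of -0.0813 ± 0.109 and 0.0742 ± 0.0556 (n = 4 each) gave an exact permutation p of 0.0857. Such a trend can follow RNA quality. Over the alternative fits other than single omitted livers, among them the one with this trend removed, Kmt2c differed by -0.52 to -0.36 and Apc by -0.40 to -0.27. Over the same fits Vps13c differed by -0.41 to -0.27 and Dmxl2 by -0.55 to -0.45. The part of the trend in the lower long genes, these among them, was not tested.

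**Figure D5:**
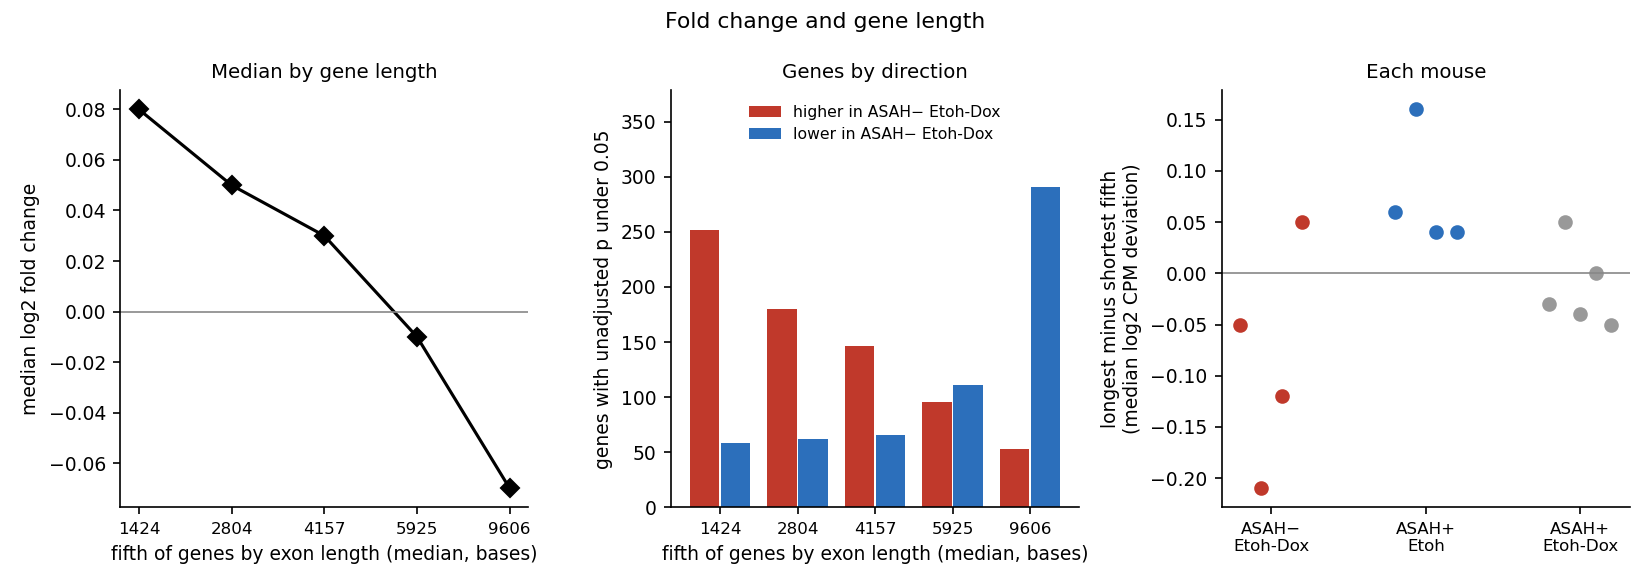
Log2 difference between ASAH- Etoh-Dox and ASAH+ Etoh in 5 bins of exon length, as the median of each bin, the number of genes higher and lower at an unadjusted p under 0.05, and the long-minus-short value of each mouse. The medians run from 0.08 in the shortest bin to -0.07 in the longest.

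With the trend of each liver on length removed, the interferon list kept a median of 0.54 and the MHC list 0.33. At an unadjusted p under 0.05, 565 genes were then higher and 594 lower, and edgeR passed none at an adjusted p of 0.1. Among the genes named here and below, the log2 difference shrank from -0.28 to -0.18 for Apob, -0.26 to -0.17 for Insr, -0.22 to -0.13 for Rora, -0.22 to -0.12 for Acer3, 0.25 to 0.15 for Mrpl12 and 0.20 to 0.10 for mt-Cytb, and grew from 0.27 to 0.43 for Reln. Smaller differences also moved by over 1.5 times, to 0.05 for Alb, 0.08 for H2-K1, 0.04 for Asah1, 0.00 for mt-Nd1 and Cyp2e1, -0.15 for mt-Co1, -0.13 for Sptlc1 and -0.02 for Sod2.

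Several groups of genes that hepatocytes express lay lower in ASAH- Etoh-Dox. Acute phase proteins, made by hepatocytes in inflammation, were lower in 25 of 31 members with a median of -0.19, and 6 had an unadjusted p under 0.05, all lower. Itih4, an inter-alpha-trypsin inhibitor heavy chain, was at 3228, 3307, 3432 and 2795 CPM against 4459, 4399, 4319 and 3883 CPM. The groups did not overlap, and the log2 difference was -0.42 ± 0.088 (SE). Saa4, a constitutive serum amyloid A, differed by -0.34. The other 4 were Il1r1, a receptor of the signal interleukin-1, at -0.59, and the plasma proteins Orm1, Orm2 and Serpina3n at -0.29, -1.14 and -0.27, all named after their values were seen. Hp, which binds free haemoglobin, differed by -0.28 and overlapped. Acute phase genes and interferon-stimulated genes thus lay on opposite sides.

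Of 61 drug-metabolizing cytochromes and their receptors, 28 were higher and 33 lower with a median of -0.03, and 6 were lower and 1 higher at an unadjusted p under 0.05. Cyp3a25 was at 400, 412, 408 and 374 CPM against 661, 490, 560 and 548 CPM, without overlap and with a log2 difference of -0.50 ± 0.11 (SE). Cyp3a11, which oxidizes many drugs and steroids, averaged 1916 ± 310 and 2761 ± 551 CPM. The 1 higher member was Ugt2b1, a glucuronosyltransferase named after its value was seen, at 0.33. Cyp1a2 differed by 0.37, and Cyp2e1, the cytochrome that oxidizes ethanol, averaged 8759 ± 2187 and 8313 ± 1864 CPM and overlapped. Ethanol and acetaldehyde genes were higher in 7 of 14 with a median of 0.01. Adh1, the main alcohol dehydrogenase of liver, differed by 0.06, and the 1 member at an unadjusted p under 0.05 was Acss3, an acyl-CoA synthetase of mitochondria, at -0.49.

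Genes of bile acid synthesis and transport were lower in 25 of 32 members with a median of -0.13, and 7 had an unadjusted p under 0.05, all lower. Abcc2, the canalicular pump for conjugated organic anions, was at 504, 484, 502 and 513 CPM against 607, 620, 600 and 587 CPM. Abcb4, the canalicular phospholipid exporter, was at 270, 236, 262 and 285 CPM against 339, 339, 326 and 352 CPM. Both were tight within groups and did not overlap, at -0.27 ± 0.078 and -0.37 on the log2 scale. Nr0b2, the repressor SHP that bile acids induce, differed by 0.49, a value that ran from 0.09 to 0.71 with 1 liver left out and was 0.13 with the log2 ratio of Dbp and Arntl in the model.

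Sphingolipid enzymes, the pathway of the transgene, were higher in 23 of 39 members with a median of 0.03, 5 lower and 1 higher at an unadjusted p under 0.05. Samd8, a synthase of ceramide phosphoethanolamine, was at 31.4, 37.7, 34.0 and 32.0 CPM against 49.8, 46.2, 47.8 and 40.5 CPM. Its groups did not overlap, with a log2 difference of -0.45. Sgms1 and Sgms2, which turn ceramide into sphingomyelin, differed by -0.43 and -0.30, and Ugcg, which turns it into glucosylceramide, by -0.34. The fifth lower gene was Acer3, an alkaline ceramidase, at -0.22, and the higher one was Ormdl1, a brake on ceramide synthesis, at 0.21. None of these 6 passed the adjusted test of edgeR, and Sgms2, Ugcg, Acer3 and Ormdl1 were named after their values were seen. Sptlc1, of the first step of synthesis, differed by -0.08, and Sphk2, a sphingosine kinase, by 0.47.

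Apolipoproteins and genes of VLDL assembly were higher in 15 of 25 members with a median of 0.03, and 3 were higher and 3 lower at an unadjusted p under 0.05. Apoa1, the main protein of HDL, was at 5779, 6660, 6048 and 7490 CPM against 4203, 5769, 4142 and 3703 CPM. ASAH+ Etoh replicate 2 lay just under the lowest ASAH- liver, and the log2 difference was 0.54 ± 0.13 (SE). Apobec1, the editor of the Apob transcript, and Apoc4 differed by 0.35 and 0.27. The 3 lower members were Apob, the structural protein of VLDL, at -0.28, Mttp, which loads it with lipid, at -0.21, and Apoc2, the activator of lipoprotein lipase, at -0.34. Apobec1, Apoc4 and Apoc2 were named after their values were seen.

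Genes of cholesterol synthesis and uptake were higher in 23 of 32 members with a median of 0.21. Mvk, mevalonate kinase, was at 19.4, 18.9, 14.2 and 10.9 CPM against 8.94, 7.24, 9.60 and 11.6 CPM, overlapping by ASAH- replicate 4 and ASAH+ Etoh replicate 4. Srebf2, the transcription factor of the pathway, and Fdft1, squalene synthase, differed by 0.26 and 0.35, and with Mvk made up the 3 at an unadjusted p under 0.05, Fdft1 being named after its value was seen.

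Lipogenic genes were lower in 18 of 29 members with a median of -0.07, the 2 at an unadjusted p under 0.05 being Me1, malic enzyme, at -0.45 and Mogat1, an acyltransferase of triglyceride synthesis, at -1.20. Mogat1 was at a low level, averaging 0.586 CPM in ASAH- Etoh-Dox and 1.37 CPM in ASAH+ Etoh, and overlapped. Genes of lipid droplets and lipolysis were higher in 14 of 20 with a median of 0.16, or 0.08 with the length trend removed. G0s2, an inhibitor of the lipase ATGL, averaged 82.7 ± 20.8 CPM against 41.7 ± 18.1 CPM, and it and Hilpda, another ATGL inhibitor, at 0.62, were the 2 at an unadjusted p under 0.05. Plin2, the main coat protein of hepatic droplets, differed by 0.23. Targets of PPAR alpha and genes of fatty acid oxidation were higher in 26 of 57 with a median of -0.03 and none at an unadjusted p under 0.05. Ppara differed by -0.21 and Acadm, an acyl-CoA dehydrogenase named after its value was seen, by -0.09. Gluconeogenesis and glucose handling were higher in 17 of 32 with a median of 0.00, the 1 at an unadjusted p under 0.05 being Insr, the insulin receptor, at -0.26.

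Antioxidant genes and NRF2 targets were higher in 31 of 50 members with a median of 0.06, and 4 were higher and 1 lower at an unadjusted p under 0.05. Sod3, the extracellular superoxide dismutase, averaged 34.8 ± 9.38 and 23.9 ± 1.96 CPM. Sod1, the cytosolic form, averaged 526 ± 53.4 and 417 ± 22.9 CPM, while Sod2, the mitochondrial form, differed by -0.07 on the log2 scale. The other 3, named after their values were seen, were Prdx4, a peroxiredoxin of the secretory pathway, at 0.26, Cbr3, a carbonyl reductase under 1 CPM, at 0.71 and Gsta4, a glutathione transferase, at -0.35.

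Heat shock genes were lower in 18 of 20 members with a median of -0.19, yet the 4 at an unadjusted p under 0.05 were divided. Hspa4l and Hspa4, relatives of HSP70, differed by -0.44 and -0.18, and Cryab, a small heat shock protein, and Hsf1, the transcription factor of the response, by 0.45 and 0.25. Hsph1, a nucleotide exchange factor, differed by -0.61, and ran from -0.85 to -0.24 with 1 liver left out. ER chaperones and genes of ER-associated degradation were lower in 22 of 32 with a median of -0.04, the 2 at an unadjusted p under 0.05 being Edem3 and Sel1l, of ER-associated degradation, at -0.32 and -0.25. Lysosome and autophagy genes were higher in 31 of 46 with a median of 0.03, and Map1lc3a, a coat protein of autophagosomes, at -0.35 and Lamp2, a lysosomal membrane protein, at -0.20 were the 2 at that threshold. Cryab and Hsf1 were named after their values were seen.

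Cell cycle genes were higher in 26 of 29 members with a median of 0.33. The 4 at an unadjusted p under 0.05 were Birc5 and Aurkb, of the chromosomal passenger complex, at 1.10 and 1.21, Ccna2, cyclin A, at 0.95 and Tyms, thymidylate synthase, at 0.27, the last 2 named after their values were seen. Mki67, a marker of dividing cells, differed by 0.66. Levels were low. In ASAH- Etoh-Dox and ASAH+ Etoh, Birc5 averaged 1.04 and 0.483 CPM, Aurkb 0.495 and 0.212 CPM, and Ccna2 1.11 and 0.567 CPM. Aurkb overlapped between the groups. In Birc5 and Ccna2, ASAH- replicate 3, the liver with the highest macrophage and globin transcripts, was the highest of its group at 1.59 and 2.04 CPM. Without that liver the list median was 0.19, and Ccna2 and Mki67 differed by 0.48 and 0.33.

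Zonation was mixed. Pericentral and Wnt target genes were higher in 12 of 19 members with a median of 0.06, the 1 at an unadjusted p under 0.05 being Znrf3, a brake on Wnt receptors, at -0.30. Periportal genes were lower in 12 of 15 with a median of -0.18, the 2 at that threshold being Gls2, the liver glutaminase, at -0.39 and Ctsc, a lysosomal protease, at -0.37.

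Core clock genes were lower in 12 of 18 members with a median of -0.12 (-0.15 to -0.03 with 1 liver left out), the 1 at an unadjusted p under 0.05 being Rora, a nuclear receptor that activates Arntl, at -0.22. Clock output genes were lower in 9 of 16 with a median of -0.10 and none at that threshold. The log2 ratio of Dbp to Arntl, which peak at opposite times of day, was -0.96, 6.49, 1.81 and 6.11 in ASAH- Etoh-Dox and 4.45, 6.06, 5.05 and 1.60 in ASAH+ Etoh. The livers thus differed widely within each group, with an exact permutation p of 0.743 between groups (n = 4 each). Immediate early genes, which respond within minutes to handling or stimuli, were higher in 13 of 23 with a median of 0.10 and none at an unadjusted p under 0.05.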

How the data were processed

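RNaseq was done on whole liver with stranded poly(A) libraries read from 1 end. The deposited values are the authors' estimated counts per gene, made with salmon and tximport on GENCODE M19 (GRCm38.p6), and all are whole numbers. Transcript-length offsets were not available and not used, and reads shared by a gene and its copy can be assigned to either. Names and positions were taken from GENCODE M21, which held 53355 of the 53392 IDs. The 13 libraries were fitted together in R 4.3.3 with edgeR 4.0.16 (TMM scaling, filterByExpr, robust quasi-likelihood test, Benjamini-Hochberg adjustment, threshold 0.1), and tested on simulated data. Alternatives used DESeq2 1.42.0, limma 3.58.1 and single omitted livers. Python 3.11.15 made lists, exact permutation tests and figures. Members and lists were chosen with earlier results of these data known. The rule for naming genes (Asah1, genes past the threshold, the 8 higher and 8 lower protein-coding genes without overlap and with the smallest p, the 5 higher and 5 lower first in DESeq2 on the 8 mice, and in each list its anchor genes and the 2 members with the smallest p) took 160 genes, of which 94 are given with values of their own and the others are not described singly. Another 33 fall outside it and were chosen after their values were seen.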

Additional observations from a re-analysis of the deposited data

Results flagged for a closer look

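For 138 measures, each liver was compared with the others of its group of 4 or 5, and in 22 of 414 groups the highest or lowest liver stood apart (its gap to the next liver, relative to the range of the group, passed Dixon's 95% critical value). Chance gives about 1 in 20 groups, so the total is close to what chance alone gives.

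In ASAH- Etoh-Dox, replicate 3 was highest for C1qa at 84.2 CPM (the others 44.3 to 50.2), C1qc at 75.5 (37.3 to 40.9), Birc5 at 1.59 (0.822 to 0.894), Ccna2 at 2.04 (0.776 to 0.822) and Cbr3 at 0.531 (0.457 to 0.465). Replicate 4 was lowest for mt-Nd3 at 109 CPM (143 to 149).

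In ASAH+ Etoh, replicate 1 was lowest for Ormdl1 at 14.8 CPM (17.3 to 17.4) and highest for Pdgfrb at 8.66 (6.54 to 6.88), and replicate 3 was lowest for Kmt2c at 35.6 (39.1 to 39.4). Replicate 4 was highest for Reln at 50.4 CPM (41.3 to 42.5) and H2-Ab1 at 13.1 (9.88 to 10.4), and lowest for Cbr3 at 0.173 (0.323 to 0.326).

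In ASAH+ Etoh-Dox, replicate 2 was highest for H2-Ab1 at 37.6 CPM (10.9 to 17.1), H2-Aa at 55.4 (15.2 to 21), Cd74 at 132 (41.8 to 57.7), Saa4 at 382 (294 to 305) and Cbr3 at 0.54 (0.304 to 0.362). The same liver was lowest for Apob at 4909 CPM (5730 to 6001) and G0s2 at 26.2 (47 to 52.1). Replicate 1 was highest for Shmt2 at 232 CPM (164 to 180) and Orm1 at 727 (496 to 541), and replicate 5 was lowest for mt-Atp6 at 7663 (9290 to 9904).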

How the results depend on the processing

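The directions of mt-Co3 and mt-Co2 held under every alternative run, and their calls did not. With 1 of the 13 livers left out, edgeR called 0 to 2 genes. It called 2 only without ASAH- Etoh-Dox replicate 4, 1 without ASAH+ Etoh-Dox replicate 1 or ASAH+ Etoh replicate 3, and 0 without any other liver. Across these fits the log2 difference of mt-Co3 was 0.69 to 0.80 with an adjusted p of 0.0214 to 0.34, and that of mt-Co2 was 1.34 to 1.67 with 0.0061 to 0.34. Genes at an unadjusted p under 0.05 numbered 882 without ASAH- Etoh-Dox replicate 3 and 1837 without replicate 4, the lowest and highest of the 13.

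edgeR called 0 genes at an adjusted p under 0.05, 0 on the 8 mice alone (692 higher and 565 lower at an unadjusted p under 0.05), and 1 with the clock ratio (Dbp over Arntl) in the model. DESeq2 called 150 genes on all 13 mice and 168 on the 8. The cause of the difference between the tools was not tested. limma-voom, DESeq2 size factors in edgeR, no robust dispersion and a minimum of 10 counts each gave 2. No count filter also gave 2, of which 1 was shared. Genes higher and lower at an unadjusted p under 0.05 numbered 644 and 685 with DESeq2 size factors and 795 and 491 with library totals. Replicate numbers belong to different mice, and the levels of mice with the same number in both groups correlated at -0.0611, 0.0921, -0.0155 and -0.265 (mean -0.0624, against 0.021 for different numbers), so mice were not paired. With the replicate block edgeR called 0 genes, with 1027 at an unadjusted p under 0.05.

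Removal of the length trend and the summing of mitochondrial genes with their nuclear copies were chosen after seeing the data, and each left 0 called by edgeR, with 1159 and 1309 genes at an unadjusted p under 0.05. With the length trend removed the median log2 difference was -0.20 for bile acid synthesis and transport, -0.06 for apolipoproteins and -0.02 for hepatocyte markers. It was also below 0 for nuclear OXPHOS subunits, antioxidant genes and pericentral genes (-0.01 each), ethanol metabolism (-0.03) and gluconeogenesis (-0.04), and it was -0.09 for drug-metabolizing cytochromes and ER chaperones, -0.04 for mitochondrial chaperones, 0.09 for mitochondrially encoded proteins, 0.01 for the mitochondrial ribosome and for sphingolipid enzymes, 0.03 for ATF4 targets, 0.08 for lipid droplets, 0.04 for immediate early genes and 0.16 for neutrophil markers. Single genes that changed sign were Adh1 at -0.01 and Gm28661 at -0.04.

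With 1 liver left out, the list medians ranged from -0.01 to 0.07 for apolipoproteins, -0.03 to 0.03 for sphingolipid enzymes, -0.08 to 0.03 for ethanol metabolism, -0.15 to 0.05 for gluconeogenesis and 0.03 to 0.08 for hepatocyte markers. All of these but hepatocyte markers changed sign, as did 10 more lists, ranging from -0.05 to 0.51 for cholangiocyte markers, -0.04 to 0.34 for immediate early genes, -0.33 to 0.05 for clock output, -0.21 to 0.03 for sinusoidal endothelial markers, -0.19 to 0.01 for ER chaperones, -0.12 to 0.08 for PPAR alpha targets, -0.08 to 0.01 for drug-metabolizing cytochromes, -0.02 to 0.14 for antioxidant genes, -0.04 to 0.12 for pericentral genes and -0.02 to 0.08 for lysosome genes. Other medians, beside those given with their lists, that kept their sign but moved by over 1.5 times ranged from 0.02 to 0.09 for nuclear OXPHOS subunits, -0.03 to -0.00 for mitochondrial chaperones, -0.12 to -0.01 for lipogenesis, 0.07 to 0.20 for lipid droplets, 0.14 to 0.32 for cholesterol synthesis, -0.28 to -0.11 for periportal genes, -0.29 to -0.10 for heat shock proteins, 0.19 to 0.45 for the cell cycle and 0.33 to 0.67 for macrophage markers. Single genes that crossed 0 with 1 liver left out ranged from -0.27 to 0.03 for Irf1 (0.03 without ASAH+ Etoh replicate 1), -0.01 to 0.11 for Adh1 (-0.01 without ASAH+ Etoh replicate 4), -0.02 to 0.11 for Gm28661 (-0.01 without ASAH- Etoh-Dox replicate 2, -0.02 without ASAH+ Etoh replicate 2) and -0.10 to 0.22 for Cyp2e1 (-0.10 without ASAH- Etoh-Dox replicate 4, -0.04 without ASAH+ Etoh replicate 4). The cause was not tested. Other genes that kept their sign but moved as much ranged from 0.03 to 0.17 for Asah1, 0.05 to 0.17 for Alb, 0.02 to 0.17 for mt-Nd1, -0.15 to -0.04 for mt-Co1, 0.07 to 0.25 for H2-K1, 0.49 to 0.85 for C1qa, 0.40 to 0.81 for C1qc, 0.43 to 0.99 for Adgre1, 1.24 to 2.47 for Hba-a1, 1.41 to 2.61 for Hba-a2, 1.19 to 2.33 for Hbb-bs, 0.06 to 0.20 for Dcn and 0.36 to 0.75 for Col3a1. Further such genes ranged from 0.20 to 0.45 for Pdgfrb, -0.41 to -0.17 for Hp, 0.28 to 0.63 for Sphk2, 0.40 to 0.72 for Hilpda, 0.10 to 0.37 for Plin2, -0.34 to -0.08 for Ppara, -0.17 to -0.03 for Acadm, -0.15 to -0.02 for Sod2, 0.33 to 0.64 for Sod3, -0.52 to -0.29 for Hspa4l, 0.48 to 1.09 for Ccna2 and 0.33 to 0.83 for Mki67. Of 3163 single-gene values under all alternatives, 3048 kept direction and side of the threshold, 32 lost a call, 75 gained one and 8 reversed. Of 481 list medians, 471 moved by less than the spread between livers.

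Each group held 4 livers, the median SE was 0.17 on the log2 scale over 14317 genes, and the number of genes called depended on the tool. Dox and genotype cannot be told apart, and cell composition, time of day and RNA quality were followed here only through transcripts, since the labels give no such value for each mouse.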

Other observations

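Nnt, the mitochondrial transhydrogenase that is deleted in some C57BL/6 sublines, was at 108, 51.9, 62.2 and 56.5 CPM in ASAH- Etoh-Dox and at 137, 109, 124 and 133 CPM in ASAH+ Etoh, for the more abundant of the 2 gene models of that name. The control groups did not overlap (log2 difference -0.85), the adjusted p was 0.445 by the quasi-likelihood test of edgeR with Benjamini-Hochberg adjustment, and ASAH- replicate 1 lay next to the ASAH+ livers. The 5 ASAH+ Etoh-Dox livers were at 56.1, 111, 48.6, 112 and 118 CPM and spanned both. The gene was chosen after its values were seen, and the labels give no strain background.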
